A study of Mus musculus with 8 samples.

Results

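The genes described here are 43 mouse genes of the cell division cycle, chosen by name and followed through RNA-seq of sorted osteoblasts after doxorubicin. Of these, 17 act at the entry to S phase or in DNA replication and are called the S phase genes, and 26 act in G2 phase and mitosis and are called the mitotic genes. All 43 were found among the 21154 gene symbols of the count table, and all 43 were among the 15373 genes that passed the filter on low counts. The libraries came from female mice carrying the Col2.3-GFP transgene, in which a fragment of the Col1a1 promoter drives green fluorescent protein in bone-forming cells. The PBS group (3 libraries) received 4 weekly intravenous injections of phosphate-buffered saline, and the DOX group (5 libraries) received 4 of doxorubicin at 5 mg/kg, starting as young adults of 8 to 10 weeks. GFP-positive cells were sorted 8 weeks after treatment from enzyme-digested bone whose marrow had been spun out, so both groups share the transgene, the sort and the age. The gate follows a promoter of bone-forming cells, not the cell cycle, and the labels do not say whether animals were pooled. The labels give 2 batches. PBS replicate 1 belonged to batch 1 with the DOX libraries numbered 1 and 2, while PBS replicates 2 and 3 and the remaining DOX libraries formed batch 2. For DOX replicate 1 the labels conflict, since a treatment tag of PBS stands under a DOX title, and the title was followed.

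Cells pass from G1 into S phase when cyclin E and its kinase release E2F transcription factors from the retinoblastoma family of repressors. E2F factors then raise the genes of the MCM helicase, of the sliding clamp and of nucleotide supply, while the genes of mitosis peak later, under the MuvB complex with B-MYB and FOXM1. In non-dividing cells the DREAM complex holds both sets of genes low, and mature osteoblasts are largely cells that have left the cycle. Doxorubicin poisons topoisomerase II and breaks DNA, which stops dividing cells through p53 and p21.

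The promoters of the S phase and mitotic genes differ in how often they hold certain short sequences. The windows of 4 members named below are shown as examples. RefSeq promoter windows (build GRCm38.p6, 250 bases before to 50 after the start) were matched for 37 of the 43 genes, 15 S phase and 22 mitotic. Capitals mark matches on either strand to E2F-type letters (TTCCCGC, its variant TTGGCGC, the variant TTCGCGC or the variant TTGCCGC), to the letters of the cell cycle homology region (TTTGAA or its variant TTCGAA) and to CCAAT; matches may overlap. Mcm3 and Mcm6 are S phase genes at chr1:20820263-20820562 and chr1:128359656-128359955, and Ccnb2 and Mki67 are mitotic genes at chr9:70421505-70421804 and chr7:135716330-135716629, all on the minus strand and written 5′ to 3′.
Mcm3: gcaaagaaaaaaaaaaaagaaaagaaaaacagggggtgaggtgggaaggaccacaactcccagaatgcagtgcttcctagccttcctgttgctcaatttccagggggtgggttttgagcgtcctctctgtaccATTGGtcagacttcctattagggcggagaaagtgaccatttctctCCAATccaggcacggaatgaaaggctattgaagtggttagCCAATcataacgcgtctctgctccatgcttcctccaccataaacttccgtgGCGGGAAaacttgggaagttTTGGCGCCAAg
Mcm6: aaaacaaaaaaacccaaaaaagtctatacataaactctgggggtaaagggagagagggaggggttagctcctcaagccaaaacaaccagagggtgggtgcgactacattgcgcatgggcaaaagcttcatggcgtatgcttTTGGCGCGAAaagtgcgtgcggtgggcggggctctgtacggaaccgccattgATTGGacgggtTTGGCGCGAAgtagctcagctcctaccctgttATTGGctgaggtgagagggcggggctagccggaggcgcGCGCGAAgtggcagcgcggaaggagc
Ccnb2: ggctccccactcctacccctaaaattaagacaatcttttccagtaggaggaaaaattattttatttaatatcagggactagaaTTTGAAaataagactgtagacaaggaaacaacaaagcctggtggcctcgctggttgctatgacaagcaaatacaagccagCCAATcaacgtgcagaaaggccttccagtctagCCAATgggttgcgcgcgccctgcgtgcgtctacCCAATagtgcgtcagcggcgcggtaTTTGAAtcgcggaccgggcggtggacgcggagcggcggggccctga
Mki67: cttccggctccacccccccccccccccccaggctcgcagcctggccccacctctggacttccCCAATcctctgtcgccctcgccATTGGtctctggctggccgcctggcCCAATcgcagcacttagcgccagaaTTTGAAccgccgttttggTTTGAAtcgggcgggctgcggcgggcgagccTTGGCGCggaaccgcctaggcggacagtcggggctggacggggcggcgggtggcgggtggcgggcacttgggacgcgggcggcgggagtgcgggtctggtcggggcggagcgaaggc
An E2F-type match was present in 9 of 15 S phase and 3 of 22 mitotic windows (60.0% and 13.6%), against 16.9% of the windows of genes tested and 9.69% of all windows. A match to the cell cycle homology region was present in 3 of 15 S phase and 17 of 22 mitotic windows (20.0% and 77.3%), against 13.9% and 19.4%. CCAAT was present in 10 of 15 and 18 of 22 (66.7% and 81.8%), against 38.8% and 37.9%. In the windows shown, Mcm3 has 3 E2F-type matches and Mcm6 has 5, and neither has a match to the homology region. Ccnb2 has 2 matches to the homology region and no E2F-type match, and Mki67 has 2 and 1. Not all S phase windows are like those shown: the windows used for E2f1, Ccne1, Pcna, Tyms, Tk1 and Mcm2 have 0 E2F-type matches. Each window is the first listed for its gene, and the start used, that of E2f1 included, may not be the main start. A window with 0 matches therefore does not show that the gene lacks such sites. These matches describe letters only.

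Transcripts of the 43 genes were a small part of every library. Library totals ran from 39419027 to 44299591 counts, and the 43 genes together took between 0.0143% (PBS replicate 3) and 0.0408% (PBS replicate 1) of them. PBS replicates 1 and 3 stood at the 2 ends of this share, and the DOX libraries lay between them, at 0.0244% to 0.0324%. All libraries carried the osteoblast markers Col1a1, Bglap, Ibsp, Alpl, Sp7 and Runx2, and the type I collagen genes took 19.1% of counts in PBS replicate 1, 23.2% in DOX replicate 1 and 26.03% to 39.5% elsewhere. Counts were scaled with TMM factors, from 0.806 in PBS replicate 3 to 1.30 in PBS replicate 1, and levels below are CPM, counts scaled to a common library total. In sorted bulk cells, fewer cells in cycle and less RNA per such cell cannot be told apart.

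S phase genes had higher levels than mitotic genes. Per kilobase of annotated exon (GENCODE M21), the median level was 1.57 CPM for the 17 S phase genes and 0.866 CPM for the 26 mitotic genes. Pcna, which encodes the sliding clamp of DNA polymerases, led at 11.7 CPM per kilobase. Mcm7 (4.70), Rrm2 (4.41) and Ccnb2 (3.57) followed on this scale, and Cenpf (0.198) and E2f8 (0.105) stood at the bottom. Over the 8 libraries the highest level of a gene was a median of 2.495 times its lowest for S phase genes and 3.42 times for mitotic genes, so library spread was wide for both. Ccne1 varied most, by 42.4 times, from 3 counts in DOX replicate 1 to 137 in PBS replicate 1.

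**Figure D1:**
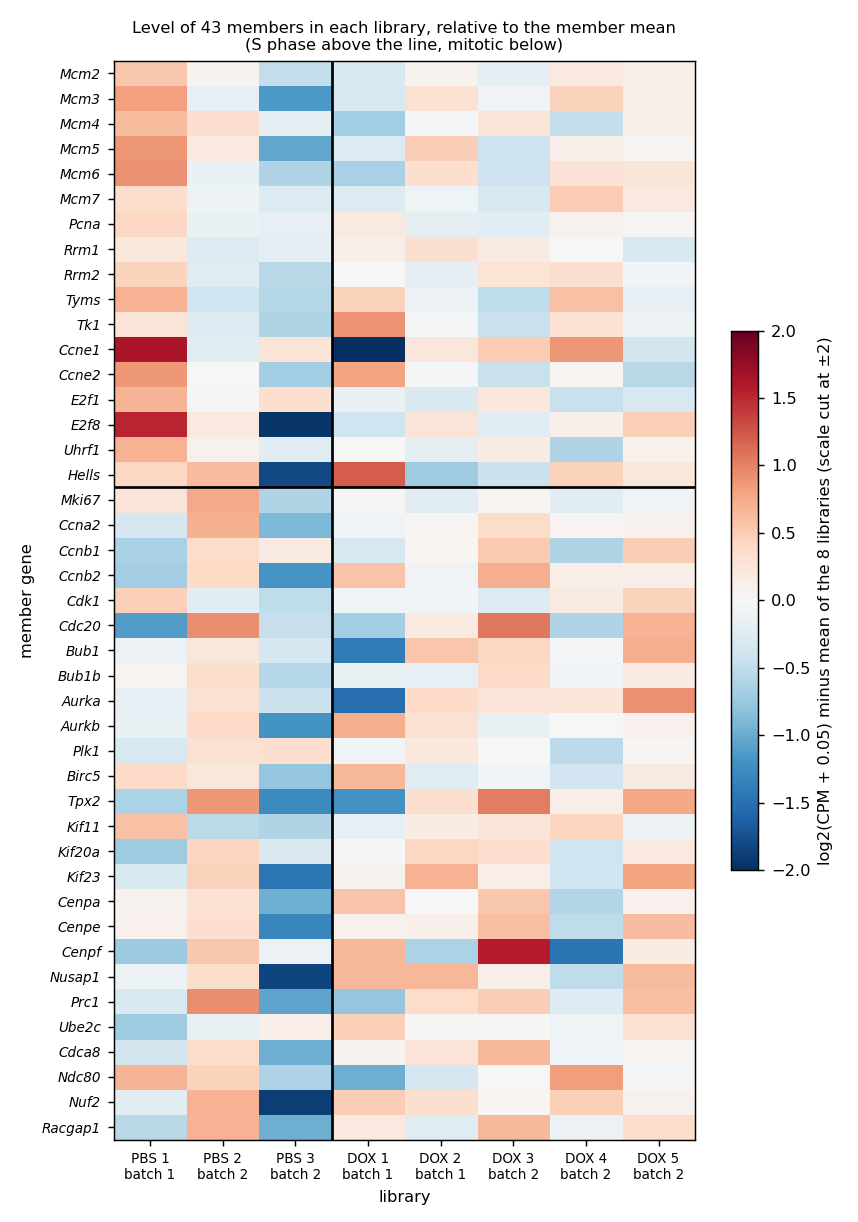
Level of each of the 43 genes (rows, S phase above the line, mitotic below) in each library (columns), as log2(CPM + 0.05) minus the gene's mean over the 8 libraries; colours stop at ±2. PBS 1 is high for most S phase genes and PBS 3 is the lowest library for 26 of the 43 genes.

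None of the 43 genes differed between DOX and PBS osteoblasts beyond the spread between libraries. EdgeR's quasi-likelihood test, with batch and group as terms, called 0 of the 43 and 0 of 15373 genes (0%), and the adjusted p of the members ran from 0.995 to 0.997. At an unadjusted p under 0.05 it listed 0 members, where it listed 3.71% of all genes tested; the smallest unadjusted p was 0.0822, for Ccnb2. The groups were apart for 0 members, where the 5 DOX values all exceeded the PBS values for 1.24% of genes tested and all fell short of them for 1.19%. DESeq2 and limma-voom called 0 members too, with smallest unadjusted p values of 0.059 and 0.119, and DESeq2 called 26 genes of the whole table (0.123%). The libraries are called biological replicates in their titles; nothing else in the labels says that they came from separate animals, and p-values measure the spread between them.

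In direction, the S phase and mitotic genes parted in the fit of all 8 libraries, but not without PBS replicate 1. Of the mitotic genes 23 of 26 had a positive log2 fold change (DOX minus PBS), with a median of 0.29. Among the S phase genes 7 of 17 were positive, with a median of -0.10. Over all genes tested 53% were positive, with a median of 0.017. The fold changes of single genes ran from -0.72 (Ccne1) to 0.32 (Tk1) for S phase and from -0.32 (Mki67) to 0.70 (Ccnb2) for mitotic genes, and every 95% interval contained 0. Neither count has a test, and both medians depended on single PBS libraries. Without PBS replicate 1 the S phase median was 0.28 and the mitotic median 0.31. Without PBS replicate 3 they were -0.34 and 0.045, and without PBS replicate 2 they were -0.053 and 0.68. The S phase median also had the opposite sign in voom (0.087), without DOX replicate 1 (0.033) and with that library counted as PBS (0.11).

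**Figure D2:**
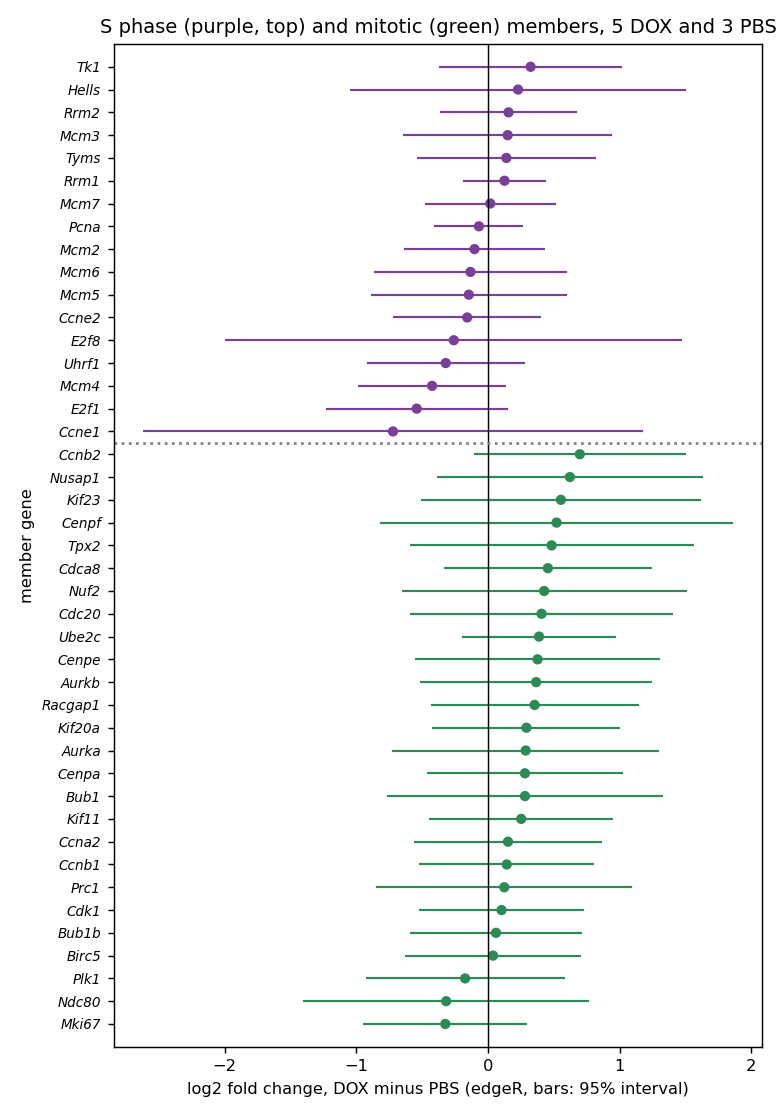
Log2 fold change of each gene, DOX minus PBS, from edgeR with its 95% interval (horizontal axis), for S phase genes (purple, top) and mitotic genes (green, bottom), 5 DOX and 3 PBS libraries. All 43 intervals cross 0, and 23 of 26 mitotic points lie to the right of it against 7 of 17 S phase points.

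The 4 genes of the G1 to S transition all had negative fold changes, and PBS replicate 1 was the highest library for all 4. E2f1 encodes the E2F activator that starts the S phase programme. It stood at 3.44, 2.07 and 2.69 CPM in PBS replicates 1 to 3, and at 1.94, 1.74, 2.46, 1.55 and 1.69 CPM in DOX replicates 1 to 5. DOX libraries were thus low in 4 of 5 cases, below every PBS library, and DOX replicate 3 lay inside the PBS range. The log2 fold change was -0.54 ± 0.31 (SE), with an interval of -1.23 to 0.15 (edgeR, adjusted p = 0.995). Ccne2, a cyclin E and the most abundant gene of this group in CPM, stood at 16.3, 8.95 and 5.58 CPM in PBS and at 15.4, 8.78, 6.57, 9.22 and 6.08 CPM in DOX. Its 2 high libraries, PBS replicate 1 and DOX replicate 1, were both of batch 1, while DOX replicate 2 of that batch was not high, and the groups overlapped (-0.16 ± 0.25). E2f8, an E2F repressor made in S phase, had at most 1.45 CPM and 3 to 77 counts per library, with a fold change of -0.26 ± 0.78. Ccne1, the other cyclin E, had -0.72 ± 0.85. With 1 library left out, E2f8 ran from -0.91 to 0.74 and Ccne2 from -0.36 to 0.015. E2f1 stayed negative, from -0.70 to -0.32. The value of Ccne1 depended on single libraries: without PBS replicate 1 (137 counts) it was 0.41, without DOX replicate 1 (3 counts) it was -0.15, and without PBS replicate 2 it was -1.24.

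The 6 subunits of the MCM helicase, the ring that unwinds DNA at the fork, showed no shared direction, with 4 negative and 2 positive and a median of -0.12. Mcm7, the most abundant, stood at 25.97, 19.0 and 16.8 CPM in PBS and at 16.9, 19.1, 16.3, 29.0 and 23.3 CPM in DOX. DOX replicate 4 was above, and DOX replicate 3 below, every PBS library (0.018 ± 0.22). Mcm4 stood at 18.9, 15.3 and 10.8 CPM in PBS and at 7.58, 11.96, 14.4, 8.73 and 13.2 CPM in DOX. Its 2 lowest libraries were DOX replicates 1 and 4, and the other 3 DOX libraries lay inside the PBS range (-0.42 ± 0.25, interval -0.99 to 0.14, adjusted p = 0.995 in edgeR). For the other 4 subunits the fold changes ran from -0.15 (Mcm5) to 0.15 (Mcm3), with standard errors from 0.24 to 0.36. In 5 of 6 subunits PBS replicate 1 was the highest of the 8 libraries.

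Genes of the clamp and of nucleotide supply were positive in 4 of 5 cases, with a median of 0.14. Pcna stood at 36.9, 25.3 and 24.7 CPM in PBS and at 31.6, 24.4, 24.0, 29.4 and 28.4 CPM in DOX, with PBS replicate 1 and DOX replicate 1 on top (-0.068 ± 0.15). The interval of Pcna, -0.41 to 0.27, was the narrowest of the 43 after that of Rrm1. Rrm1 and Rrm2, the subunits of ribonucleotide reductase, which makes deoxyribonucleotides, had fold changes of 0.13 ± 0.14 and 0.16 ± 0.23. Tyms, thymidylate synthase, had 0.14 ± 0.31. Reads of Pcna and Tyms may be shared with processed pseudogenes, so their counts are uncertain. Tk1, the thymidine kinase that salvages thymidine in S phase, stood at 3.36, 2.345 and 1.84 CPM in PBS and at 5.25, 2.75, 2.04, 3.44 and 2.61 CPM in DOX, with DOX replicate 1 the highest library (0.32 ± 0.31). Uhrf1, which guides the copying of DNA methylation, stood at 6.50, 4.23 and 3.40 CPM in PBS and at 3.96, 3.499, 4.43, 2.61 and 4.18 CPM in DOX. Only DOX replicate 4 lay below every PBS library (-0.32 ± 0.27). Hells, a chromatin remodeller of the same step, had 0.23 ± 0.57, with 20 counts in PBS replicate 3 and 244 in DOX replicate 1.

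Mitotic cyclins and their kinase were positive in 4 of 4 cases. Ccnb2, a cyclin B, had the largest positive fold change of the 43 genes and stood at 3.08, 6.68 and 2.21 CPM in PBS and at 7.52, 4.81, 8.39, 5.50 and 5.48 CPM in DOX. PBS replicate 2 lay among the DOX libraries, and the other PBS libraries lay below all 5 of them. The log2 fold change was 0.70 ± 0.36 (SE), with an interval of -0.107 to 1.504 (edgeR, adjusted p = 0.995). Its values with 1 library left out ran from 0.40 to 1.27. Ccnb1, the other cyclin B, had 0.14 ± 0.30, the S and G2 cyclin gene Ccna2 0.15 ± 0.32, and Cdk1, which encodes the kinase they activate, 0.10 ± 0.28.

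All 4 genes of the spindle checkpoint and the anaphase-promoting complex were positive. Ube2c, the ubiquitin-conjugating enzyme of that complex, stood at 2.80, 4.14 and 5.07 CPM in PBS and at 6.45, 4.66, 4.68, 4.34 and 5.62 CPM in DOX. DOX replicates 1 and 5 lay above every PBS library (0.39 ± 0.26, interval -0.19 to 0.97). Cdc20, the activator of the complex, spread over 4.61 times between libraries, from 1.82 CPM in PBS replicate 1 to 8.39 CPM in DOX replicate 3 (0.41 ± 0.45). The checkpoint kinase gene Bub1 had 0.28 ± 0.47, and Bub1b, its relative, 0.062 ± 0.29.

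Among the mitotic kinases and the chromosomal passenger complex, 4 of 5 were positive. Cdca8, which encodes borealin of that complex, stood at 2.10, 3.52 and 1.36 CPM in PBS and at 2.85, 3.25, 4.31, 2.61 and 2.82 CPM in DOX. Only DOX replicate 3 exceeded every PBS library, and PBS replicates 1 and 3 were the 2 lowest (0.46 ± 0.35). Birc5, which encodes survivin of the same complex, stood at 6.65, 6.0 and 2.95 CPM in PBS and at 8.10, 4.32, 4.92, 3.88 and 5.77 CPM in DOX, so that the groups overlapped fully but for DOX replicate 1 (0.039 ± 0.30). The kinase genes Aurka (0.29 ± 0.46) and Aurkb (0.37 ± 0.40) were positive and Plk1 (-0.17 ± 0.34) was negative.

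The 7 genes of the spindle and of cytokinesis were all positive, with a median of 0.35. Nusap1, which encodes a protein that binds spindle microtubules, stood at 3.00, 4.20 and 0.878 CPM in PBS and at 5.23, 5.24, 3.59, 2.29 and 5.09 CPM in DOX. DOX replicates 1, 2 and 5 lay above every PBS library and PBS replicate 3 below every other library (0.62 ± 0.46). Racgap1, a regulator of the cleavage furrow, stood at 3.72, 8.89 and 2.78 CPM in PBS and at 6.32, 4.64, 8.66, 5.06 and 7.02 CPM in DOX. PBS replicate 2 was its highest library and the other PBS libraries its lowest (0.35 ± 0.35). Tpx2, Kif11, Kif20a, Kif23 and Prc1, which encode spindle assembly factors, kinesins and the midzone bundler, ran from 0.12 to 0.55 with standard errors from 0.31 to 0.48.

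Of the 5 kinetochore and centromere genes 4 were positive. Cenpa, the histone H3 variant that marks centromeres, stood at 6.08, 7.09 and 2.95 CPM in PBS and at 8.63, 5.86, 8.47, 3.86 and 6.203 CPM in DOX (0.28 ± 0.33). Cenpe, a kinetochore motor, stood at 2.99, 3.57 and 1.10 CPM in PBS and at 2.99, 3.03, 4.31, 1.96 and 4.35 CPM in DOX (0.38 ± 0.42). Both had PBS replicate 3 as the lowest library, and 2 DOX libraries above every PBS library. Cenpf (0.52 ± 0.60), Nuf2 (0.43 ± 0.49) and Ndc80 (-0.32 ± 0.49) had wider errors. Mki67, the usual marker of cycling cells, went against most mitotic genes. It stood at 6.86, 9.65 and 3.74 CPM in PBS and at 5.80, 4.91, 5.93, 4.90 and 5.43 CPM in DOX, and all 5 DOX libraries lay inside the PBS range (-0.32 ± 0.28).

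**Figure D3:**
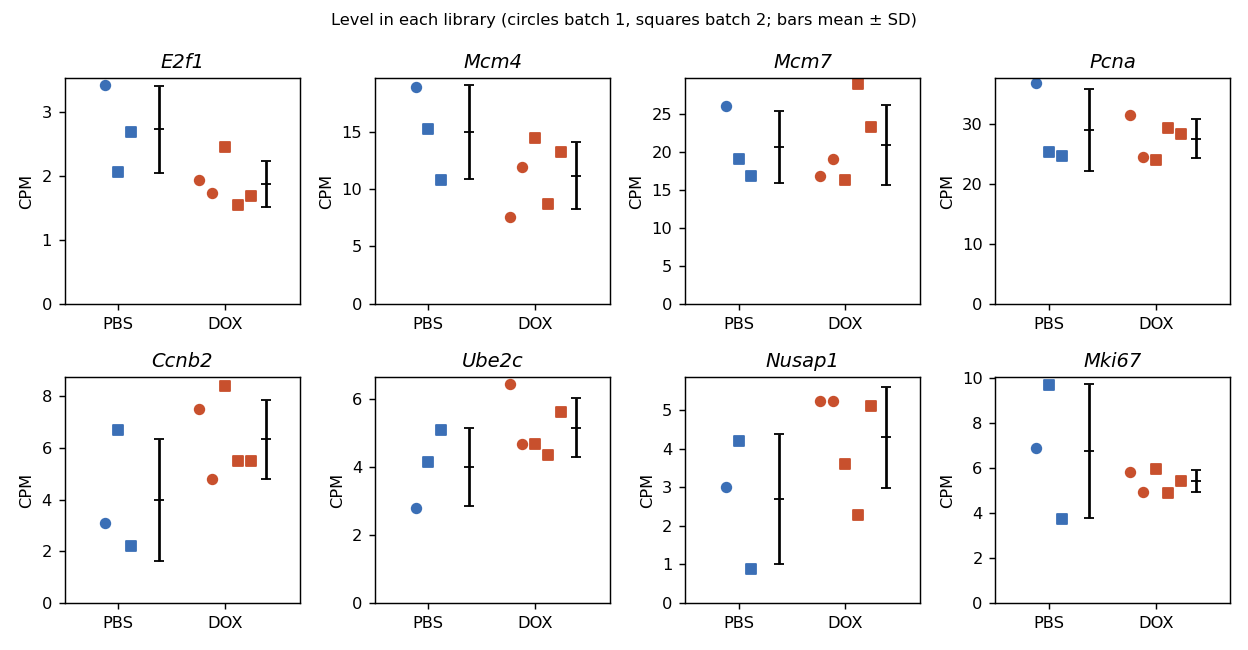
Level in CPM (vertical axes, from 0) of 8 genes in each library, PBS in blue and DOX in orange, circles for batch 1 and squares for batch 2, with the mean and SD of each group (n = 3 and 5) at its right. The groups overlap for all 8, and the 5 DOX points of Mki67 lie within the range of the 3 PBS points, 3.74 to 9.65 CPM.

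Single PBS libraries stood at the extremes for many of these genes. PBS replicate 1 was the highest of the 8 libraries for 13 of 17 S phase genes and 2 of 26 mitotic genes, where it was highest for 18.4% of all genes tested. It lay above all 5 DOX libraries for 13 of 17 S phase genes (20.6% of all genes) and 3 of 26 mitotic genes. Its level was a median of 1.64 times that of the middle one of the other 7 libraries for S phase genes and 0.740 times for mitotic genes. Exceptions among the mitotic genes were Cdk1 and Kif11, which had their highest level in PBS replicate 1. PBS replicate 3 was the lowest library for 9 of 17 S phase and 17 of 26 mitotic genes, where it was lowest for 16% of all genes tested. For the same numbers of genes, 9 and 17, it lay below all 5 DOX libraries, as it did for 20.8% of all genes tested. These are single libraries, and no test bears on them.

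Scores, the mean log2 CPM of a gene set in a library, set the S phase against the mitotic genes inside each library. The S phase score was 3.26, 2.52 and 1.97 in PBS replicates 1 to 3 and 2.41, 2.56, 2.43, 2.71 and 2.54 in DOX replicates 1 to 5. PBS libraries were the 2 ends of the range, and their SD of 0.646 (n = 3) compared with 0.122 in DOX (n = 5). The mitotic score was 1.55, 2.17 and 1.01 in PBS and 1.69, 1.89, 2.14, 1.60 and 2.09 in DOX. Here PBS replicates 2 and 3 were the ends (SD 0.582 and 0.239). The S phase minus the mitotic score was 1.71, 0.353 and 0.959 in PBS and 0.725, 0.673, 0.281, 1.11 and 0.448 in DOX. It was largest in PBS replicate 1 and smallest in DOX replicate 3, and the groups overlapped. The PBS mean was 1.01 ± 0.677 (SD, n = 3) and the DOX mean 0.648 ± 0.315 (SD, n = 5), a difference of -0.36 that was -0.0079 without PBS replicate 1 and -0.68 without PBS replicate 2.

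**Figure D4:**
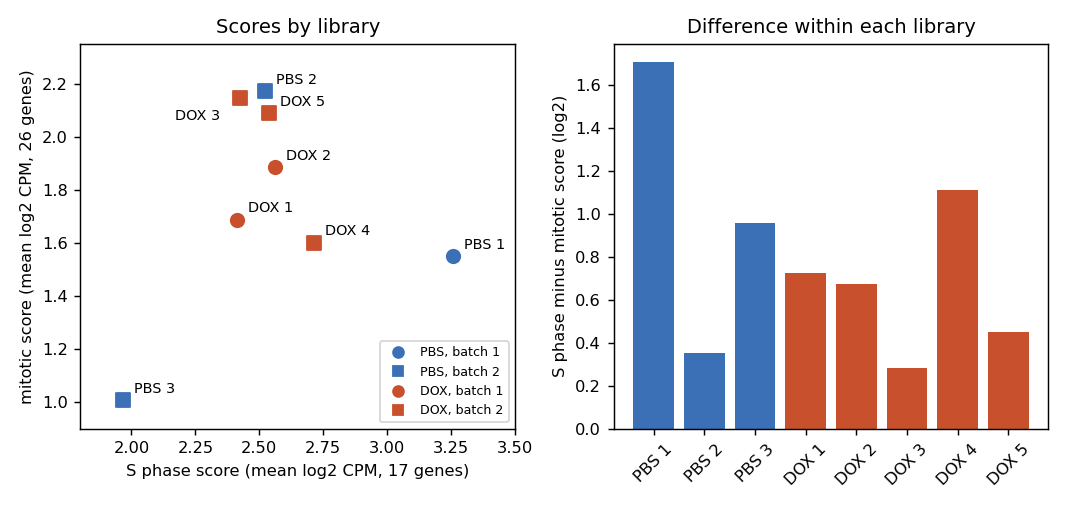
Left, S phase score against mitotic score (mean log2 CPM of 17 and 26 genes) for each library, PBS blue, DOX orange, circles batch 1, squares batch 2; right, the S phase minus the mitotic score of each library (log2). PBS 1 and PBS 3 lie apart from the other libraries, and the difference runs from 0.281 to 1.71.

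Within batches the S phase genes turned direction and the mitotic genes did not, in the median. In batch 1, where PBS replicate 1 is the only PBS library, 16 of 17 S phase genes were lower in DOX (49.9% of all genes), with a median of -0.65. Within batch 2, 14 of 17 were higher (51.7% of all genes), with a median of 0.31. The mitotic genes had 18 of 26 higher in batch 1 (median 0.36) and 21 of 26 in batch 2 (median 0.38). Lower in batch 1 and higher in batch 2 were 13 of 17 S phase and 7 of 26 mitotic genes, and 29.3% of all genes. The S phase minus mitotic score differed by -1.01 (DOX minus PBS) in batch 1 and by -0.042 in batch 2.

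A batch by treatment term, added to the edgeR fit after the data were seen, tested whether the difference itself changed between batches. It called 0 of the 43 genes and 0 of 15373 (0%) at an adjusted p under 0.05, with a smallest adjusted p of 0.295 among members. The term (batch 2 minus batch 1) was positive for 17 of 17 S phase genes, with a median of 0.88, and for 11 of 26 mitotic genes, with a median of -0.21; it was positive for 48.8% of all genes. Unadjusted p values under 0.05 came from 4 of 17 S phase genes and 1 of 26 mitotic genes, against 11.7% of all genes. These were Rrm2 (1.11 ± 0.33), Mcm3 (1.57 ± 0.54), Mcm6 (1.41 ± 0.53), Mcm7 (0.88 ± 0.38) and the kinesin gene Kif11 (1.38 ± 0.47), named here for these values. Mcm3 stood at 13.5 CPM in PBS replicate 1 and at 6.08 and 9.38 CPM in the DOX libraries of batch 1. In batch 2 it stood at 6.74 and 3.40 CPM in PBS and at 7.24, 10.4 and 8.26 CPM in DOX. Mcm3 was thus higher in PBS in batch 1, and in DOX in batch 2, with no overlap in either. The term rests on PBS replicate 1 for its PBS level in batch 1, so that library and batch 1 cannot be told apart.

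**Figure D5:**
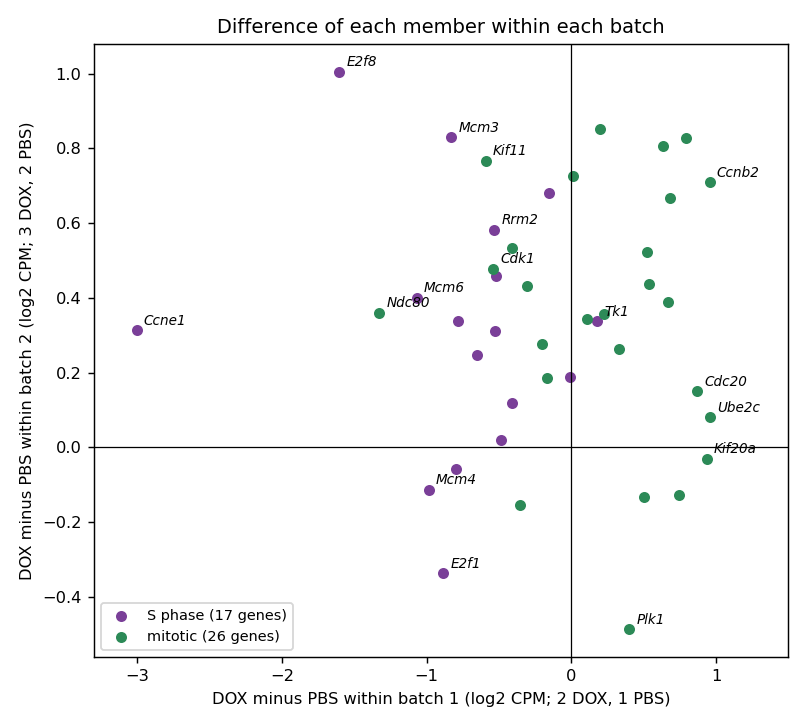
Difference of each gene between DOX and PBS (log2 CPM) within batch 1 (horizontal axis; 2 DOX, 1 PBS library) and within batch 2 (vertical axis; 3 DOX, 2 PBS libraries), S phase genes purple and mitotic genes green. Most S phase points (13 of 17) lie at the upper left, lower in DOX in batch 1 and higher in batch 2; mitotic points lie mostly at the upper right.

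In the fit with batch and group as terms, batch 2 lay below batch 1 for 16 of 17 S phase and 9 of 26 mitotic genes, against 51.6% of all genes tested. The batch term called 0 of the 43 genes and 0.0911% of all genes at an adjusted p under 0.05 in edgeR. PBS replicate 1, the only PBS library of batch 1, was the highest library for 13 of 17 S phase genes. The DOX libraries had S phase scores of 2.41 and 2.56 in batch 1 and of 2.43, 2.71 and 2.54 in batch 2, which overlap. That PBS library and batch 1 cannot be told apart, and the source of the S phase count was not tested. Ccne2 had the smallest p of the members for batch, with a difference of -0.89 (batch 2 minus batch 1, log2, edgeR adjusted p = 0.2105). Of its 3 batch 1 libraries PBS replicate 1 and DOX replicate 1 were high, and DOX replicate 2, at 8.78 CPM, lay within the range of batch 2.

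None of the other cycle genes examined, outside the 43, passed the test. Of 48 further mitotic genes 32 were higher in DOX (66.7%, median 0.21). Of 40 genes of origin licensing and the fork 27 were higher (67.5%, median 0.12). Of 30 G1 cyclins, kinases, pocket proteins and E2F genes 16 were higher (53.3%, median 0.0092). Over all genes tested 53.0% were higher, with a median of 0.017. The further mitotic list and the licensing and fork list thus did not part in direction. EdgeR called 0 in each of these lists. Fold changes of single genes ran from -0.79 to 1.24 in the mitotic list, from -0.75 to 1.56 in the licensing and fork list and from -0.41 to 0.69 in the G1 list. The largest values came from genes of low level and wide error, Pole (1.56 ± 0.99, mean 1.02 CPM) and Troap (1.24 ± 1.01, mean 0.648 CPM), named after their values were seen. At an unadjusted p under 0.05 edgeR listed 1 of 40 licensing and fork genes, Rfc5, 1 of 30 G1 genes, Skp2, and 0 of the 48, shares near or below the 3.71% of all genes tested. Rfc5, a subunit of the clamp loader, stood at 11.8, 8.07 and 9.74 CPM in PBS and at 15.2, 13.6, 12.1, 16.95 and 11.8 CPM in DOX. No DOX library reached down into the PBS range, but the nearest values were close, at 11.83 and 11.79 CPM (0.49 ± 0.18, edgeR adjusted p of 0.995). Skp2, which marks the inhibitor p27 for breakdown, stood at 5.11, 15.7 and 9.88 CPM in PBS and at 12.1, 13.2, 15.6, 16.7 and 16.4 CPM in DOX, and exceeded the top PBS value in 2 DOX libraries (0.66 ± 0.23, edgeR adjusted p of 0.995). Pola1, the catalytic subunit of the primase polymerase, had -0.75 ± 0.35, with 4 of 5 DOX libraries below the PBS range. Orc2, of the origin recognition complex, had -0.27 ± 0.16, and Orc3 of the same complex, the most abundant gene of its list at a mean of 40.02 CPM, had 0.087 ± 0.14. Among the further mitotic genes, condensin genes went both ways, with 0.82 ± 0.44 for Ncaph, 0.30 ± 0.16 for Smc4 and -0.53 ± 0.28 for Smc2; the centromere gene Cenpi had 0.40 ± 0.22. In the G1 list, the E2F repressor gene E2f6 had -0.41 ± 0.22, the E2F partner gene Tfdp2 0.29 ± 0.17 and Rbbp4, a histone-binding MuvB subunit and the most abundant, 0.026 ± 0.12. Fzr1, an activator of the anaphase-promoting complex, was singled out after its values were seen, since its DOX values, 20.19 to 25.75 CPM, were all below its PBS values, 26.24 to 27.53 CPM (-0.20 ± 0.12). Of the CDK inhibitors 5 of 6 tested were positive (83.3%, against 53.0% of all genes tested), with a median of 0.068. Cdkn1a, which encodes p21, the inhibitor induced by p53, had a mean of 288.8 CPM and a fold change of 0.041 ± 0.12. Cdkn2d (0.23 ± 0.16), Cdkn2b (0.62 ± 0.81) and Cdkn1b (0.089 ± 0.26) followed.

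Markers of other cell types differed between the same libraries. The summed level of 15 erythroid genes, led by Hbb-bs, was 209 CPM in PBS replicate 1, 23.8 CPM in PBS replicate 2, 26.7 CPM in PBS replicate 3 and 17.5 to 131 CPM in DOX, and 0 of the 15 were at 0 counts in PBS replicate 1. For 8 megakaryocyte genes, led by Ppbp, the sum was 26.1 CPM in PBS replicate 1 and at most 1.09 CPM for the remaining PBS libraries. In DOX it was 3.20 to 13.8 CPM, and Gp6 was above 0 only in DOX replicates 4 and 5. For 12 genes of reticular cells and skeletal progenitors, led by Cxcl12, the sum was 1243 CPM in PBS replicate 1. It was 523 to 674 CPM for the remaining PBS libraries and 556 to 922 CPM in DOX. PBS replicate 1 was the highest library for these 3 lists as well as for most S phase genes. DOX replicate 1 was the highest DOX library for erythroid (131 CPM) and megakaryocyte genes (13.8 CPM). Its S phase score of 2.41 was the lowest of the DOX libraries, close to 2.43 in DOX replicate 3. The parts of that score went both ways. Among DOX libraries, DOX replicate 1 was highest for clamp and nucleotide supply genes (3.78) and for Uhrf1 and Hells (2.16, mean log2 CPM). It was lowest for the MCM genes (2.91) and the G1 to S genes (0.092). A link between these lists and the S phase genes was not tested.

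PBS replicate 3, the lowest library for most mitotic genes, stood apart in blood cell markers. The 14 neutrophil lineage genes, led by Mpo, summed to 0.595 CPM there, with Elane and 8 others at 0, to 42.7 CPM in PBS replicate 1, 48.9 CPM in PBS replicate 2 and 9.31 to 144 CPM in DOX. The 14 B lineage genes, led by Ighm, summed to 527 CPM in PBS replicate 3. In the other 7 libraries they summed to 6.95 to 49.5 CPM. Rag2 was at 0 in PBS replicates 1 and 3 and in DOX replicates 2 and 5. The immunoglobulin genes Ighm (393 CPM) and Jchain (111.9 CPM) made up most of the B lineage sum in PBS replicate 3. The B cell receptor gene Cd79a stood at 4.39 CPM there and was higher in DOX replicate 4, at 6.72 CPM. The part of these cells in the S phase and mitotic results was not tested. Endothelial genes (10, led by Plvap) summed to 29.4 CPM in PBS replicate 1 and 33.0 CPM in DOX replicate 2. They ran from 6.14 to 10.6 CPM in the other libraries, with Cdh5 at 0 in PBS replicates 2 and 3 and DOX replicate 3. Monocyte and macrophage genes (10, led by Cd14) ran from 4.93 to 11.9 CPM, with Ccr2 above 0 only in DOX replicates 3 and 4. T and NK genes (5, led by Nkg7) ran from 0.0606 to 3.79 CPM. Cd3d was above 0 only in PBS replicate 2 and DOX replicates 1 and 3. The monocyte and macrophage and the T and NK lists were low in all 8 libraries. Osteoclast genes (7, led by Ctsk) ran from 318 to 457 CPM, chondrocyte genes (11, led by Col2a1) from 4376 to 13170 CPM and fibroblast, periosteum and tendon genes (12, led by Dcn) from 8228 to 12100 CPM. The last sum is mostly Dcn, and 2 tendon genes of that list, named after their values were seen, had DOX values that were all higher than the PBS values. Tnmd stood at 2.99, 5.84 and 3.23 CPM in PBS and at 20.5, 10.0, 8.37, 17.3 and 7.10 CPM in DOX (1.63 ± 0.41, edgeR adjusted p = 0.995). Kera was at 0, 0.0818 and 0 CPM in PBS and at 2.87, 3.10, 0.936, 3.28 and 1.33 CPM in DOX, and had the smallest unadjusted p of all genes tested (edgeR adjusted p = 0.995).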

How the data were processed

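The authors deposited raw counts of reads per gene symbol, unpooled, with a column for each of the 8 libraries. The submitters' processing notes name, without roles or order, build GRCm39 and the tools STAR 2.7.9a, featureCounts 2.0.1, Trim Galore 0.6.6, FastQC 0.11.5, SAMtools 1.17 and MultiQC 1.7. Annotation, strandedness and the treatment of multi-mapping reads were not given in the sources used. Libraries were made with SMART-Seq v4 Plus, per the labels' protocols; without strand, reads of overlapping genes cannot be told apart. No gene total was under 10 counts, so low totals had been dropped before deposit.

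Differential expression used edgeR 4.0.16 under R 4.3.3 (TMM, filterByExpr, batch and group as terms, quasi-likelihood test, two-sided, Benjamini-Hochberg over all genes tested, threshold 0.05). A standard error is the fold change divided by the root of its F value. DESeq2 1.42.0 and limma 3.58.1 were alternatives, and figures came from matplotlib 3.10.9 (Python 3.11.15). A prior count of 2 was added for log2 CPM. The fit was checked on simulated data. Promoters were the first RefSeq window listed per gene; exon lengths came from GENCODE M21 (GRCm38), another build than that of the counts. The members and lists were chosen with earlier results of these data known. Per-library values are given, in each of 10 role groups, for the gene of highest mean CPM and that of smallest p, and would be for members whose groups did not overlap, of which there were 0; other genes named with values in each library were chosen after those values were seen. Alternatives covered scaling, filter, test, batch term, replicate block, the label of DOX replicate 1 and left-out libraries. Counts per library ran from 3 to 1963 for the S phase genes and from 22 to 427 for the mitotic genes, which sets the precision of the lowest values.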

Additional observations from a re-analysis of the deposited data

How the results depend on the processing

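EdgeR called 0 genes with RLE size factors, no filter, a stricter filter (1 CPM in 3 libraries), no batch term, the replicate block, batch 2 alone, library totals in place of TMM (added after seeing the data), either handling of DOX replicate 1 and each library left out; DESeq2 called 26. Of the 43 genes 0 passed in any alternative. The S phase median was -0.65 within batch 1 alone, against -0.10, and the S phase minus mitotic difference was -1.01 there, against -0.36. The rest of their alternatives stayed within 1 SD of the score between libraries. That is a wide limit: for the S phase score it was 0.386, pooled from SDs of 0.646 in PBS and 0.122 in DOX. The S phase median changed sign within it, to 0.28 without PBS replicate 1. With 1 library left out, the S phase median ran from -0.34 to 0.28, the mitotic median from 0.045 to 0.68, and the score difference from -0.68 to -0.0079. Library totals moved the median of all genes from 0.017 to 0.11, the S phase median to -0.039 and the mitotic median to 0.37.

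Replicate numbers 1 to 3 recur in both groups, but PBS replicate 2 was of batch 2 and DOX replicate 2 of batch 1. The deviations of same-numbered libraries correlated at 0.25, -0.054 and 0.24. The pairs numbered 1 and 3 each lie within a batch, so these correlations cannot separate pairing from batch. The main fit did not treat the numbers as pairs. With the replicate block the medians were -0.083 (S phase) and 0.37 (mitotic).

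The sign of the fold change turned in at least 1 alternative for 28 of the 43 genes, none of them past the threshold in any; the cause was not tested. Within batch 1 alone it turned for Mcm3 (-0.83), Mcm7 (-0.53), Rrm1 (-0.0064), Rrm2 (-0.53), Tyms (-0.52), Hells (-0.15), Cdk1 (-0.54), Bub1 (-0.30), Bub1b (-0.21), Aurka (-0.41), Plk1 (0.40), Birc5 (-0.17) and Kif11 (-0.59). In batch 2 alone, and with PBS replicate 1 and DOX replicate 1 both left out, it turned for Mcm2 (0.24 and 0.23), Mcm5 (0.23 in both), Mcm6 (0.42 in both), Pcna (0.13 in both), Ccne1 (0.41 in both), Ccne2 (0.012 and 0.0096), E2f8 (0.73 in both), Ccnb1 (-0.049 and -0.050), Kif20a (-0.038 and -0.040) and Ndc80 (0.34 and 0.33). With DOX replicate 1 counted as PBS it turned for Mcm2 (0.11), Mcm5 (0.17), Mcm6 (0.27), Ccne1 (0.088), E2f8 (0.24), Hells (-0.34), Birc5 (-0.19), Cenpf (-0.049) and Ndc80 (0.068). The replicate block turned Mcm7 (-0.22), Ccne2 (0.041), Cdk1 (-0.059), Bub1 (-0.049) and Aurka (-0.19). Voom with quality weights turned Mcm2 (0.029), Mcm6 (0.087), Pcna (0.042), E2f8 (0.31), Ccnb1 (-0.027) and Cenpf (-0.0093).

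Leaving out 1 library turned the sign of 25 genes. S phase values then ran from -0.34 to 0.24 for Mcm2, -0.24 to 0.78 for Mcm3, -0.50 to 0.24 for Mcm5, -0.42 to 0.43 for Mcm6, -0.14 to 0.36 for Mcm7, -0.14 to 0.14 for Pcna, -0.062 to 0.59 for Rrm2, -0.11 to 0.55 for Tyms, -1.24 to 0.41 for Ccne1, -0.36 to 0.015 for Ccne2, -0.91 to 0.74 for E2f8 and -0.21 to 0.97 for Hells. Mitotic values ran from -0.62 to 0.080 for Mki67, -0.16 to 0.70 for Ccna2, -0.044 to 0.35 for Ccnb1, -0.10 to 0.52 for Cdk1, -0.064 to 0.52 for Bub1, -0.19 to 0.26 for Bub1b, -0.021 to 0.54 for Aurka, -0.21 to 0.30 for Birc5, -0.034 to 0.63 for Kif20a, -0.0064 to 0.77 for Cenpe, -0.11 to 0.84 for Cenpf, -0.25 to 0.79 for Prc1 and -0.74 to 0.34 for Ndc80.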

Other observations

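Leaving out a PBS library changed which members had a small unadjusted p in edgeR. Without PBS replicate 2, whose mitotic score was the highest, 8 of 26 mitotic and 0 of 17 S phase genes had an unadjusted p under 0.05, against 3.47% of all genes tested. The 8 were Ccna2, Ccnb2, Aurkb, Kif23, Nusap1, Cdca8, Nuf2 and Racgap1. The PBS libraries then left had mitotic scores of 1.55 and 1.01, below every DOX library (lowest 1.60). This count depended on which library was removed and is not taken as evidence of a difference. Whether PBS replicate 2 or the other PBS libraries were unusual was not tested. Without PBS replicate 1, 2 of 17 S phase genes (Mcm3 and Rrm2) and 1 of 26 mitotic genes (Kif11) had an unadjusted p under 0.05, against 6.79% of all genes. Without PBS replicate 3, 1 of 17 (Mcm4) and 1 of 26 (Mki67) did, both lower in DOX, against 3.05%. Counts of 1 or 2 genes in a list are too few to tell from the share of all genes. No member passed the adjusted threshold in any of these fits, and the smallest adjusted p values were 1.00, 0.701 and 1.00. The 3 sets of genes shared no member, which for sets this small says little about the genes.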
